A study of Xenopus tropicalis with 24 samples.

Results

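Tail and intestine of wild-type (WT) Xenopus tropicalis tadpoles given thyroid hormone were compared gene by gene, to describe how an organ that will be resorbed and an organ that will be remodelled differ while both are under the same hormone. The comparison rests on the libraries labelled WT and T3, 3 of tail and 3 of intestine, which are 6 of the 24 libraries of the study, and covered the 17383 of 26531 listed genes with enough counts to test. All tadpoles were at stage 54, and the treated ones had received T3, the active thyroid hormone (triiodothyronine), at 5 nM for 18 h at 25 °C. The 3 intestine and 3 tail libraries of WT tadpoles kept without T3 (control) served to ask whether an organ difference was the same without hormone. Libraries of the TRDKO genotype, the study's animals without thyroid hormone receptor, entered only an alternative fit. Nothing in the labels ties the replicates to separate tadpoles or pools, and the error behind each p-value is the variation among these libraries, part of which may be technical.

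Thyroid hormone drives the metamorphosis of frogs. T3 enters cells, binds receptors encoded by thra and thrb, which sit on DNA as pairs with retinoid X receptors, and turns on genes that the unliganded receptors hold down. Deiodinases set how much active hormone a cell keeps. In the tadpole tail the programme ends in the breakdown of muscle, notochord, skin and nerve cord, and in the intestine the larval epithelium is replaced by an adult one that grows from stem cells within a thickened connective tissue. Roles given for named genes are those known from mammals or other vertebrates unless a tadpole role is named.

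Library totals ran from 18909799 to 23266666 fragments in the 6 T3 libraries, with 18324 to 19227 genes counted in each. Levels are given as CPM (counts scaled by TMM to a common library size), per library in the order replicate 1, 2 and 3 or as mean ± SD (n = 3, and n = 2 for the tail control, where replicates 1 and 3 agreed within sampling noise and were counted as 1 sample). Replicates of the T3 groups stood close together: among 9472 genes at 5 CPM or more in both organs, the median absolute log2 difference was 0.0512 to 0.0585 between tail replicates, 0.0487 to 0.0554 between intestine replicates and 0.593 to 0.598 between organs. The biological coefficient of variation was 1.84% over the WT groups, and differences far under 2-fold passed the test. A gene was called only where edgeR's quasi-likelihood test gave a Benjamini-Hochberg adjusted p below 0.05 and the fitted difference was at least 2-fold. Log2 differences are tail minus intestine, so positive values are higher in tail, and ± after a log2 value is its standard error.

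Most genes differed between the organs, and about as many were called as not. Of 17383 genes tested, 15404 passed the adjusted p alone (88.6%) and 8884 were called (51.1%), 5206 higher in tail (29.9%) and 3678 higher in intestine (21.2%). These shares are the background against which each list's counts are read. The libraries of tail and intestine did not overlap for 15362 genes (88.4%). The median log2 difference over all genes tested was 0.10, and scaling by library totals alone moved it to 0.31, so the direction of small differences depends on the scaling. Differences of at least 16-fold were fitted for 1785 genes on the tail side and 1011 on the intestine side. Genes at 5 CPM or more numbered 11661 in tail and 10789 in intestine. Of these, 171 tail genes had no count at all in the intestine libraries and 119 intestine genes had none in tail. At the other end, 6845 of the 12978 genes at 5 CPM or more in the higher organ lay within 2-fold of each other.

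**Figure D1:**
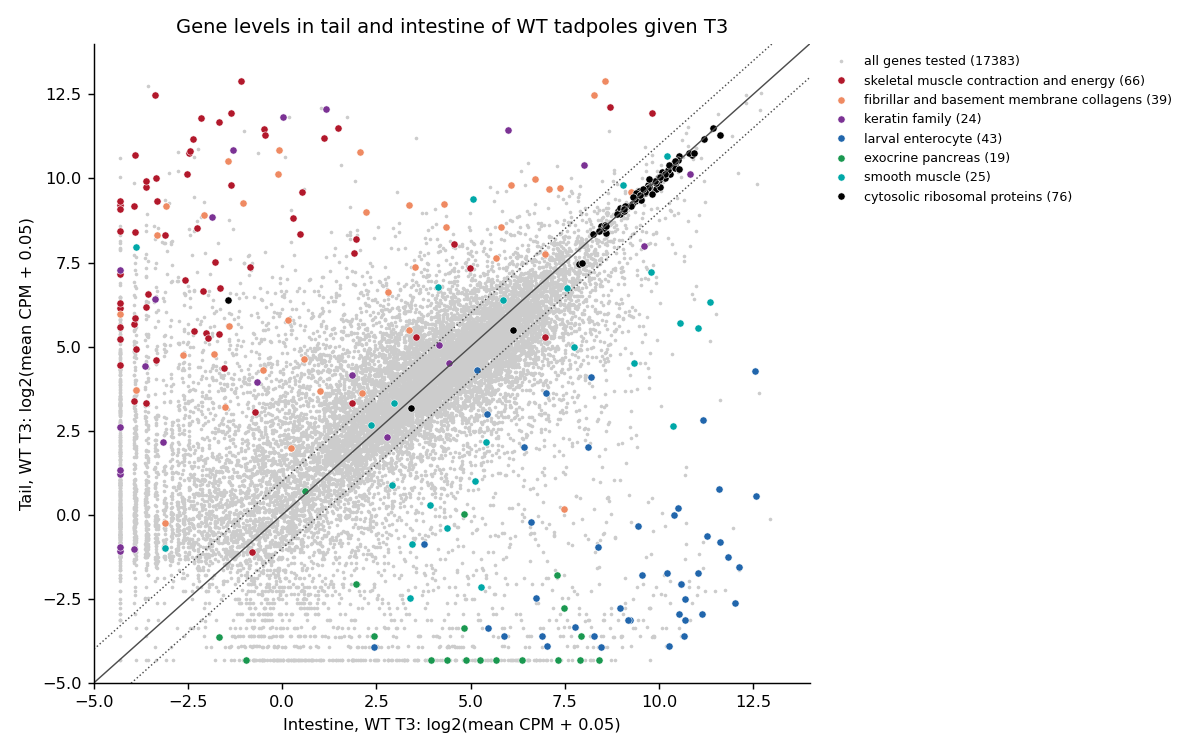
Mean level of each tested gene in intestine (x axis) and tail (y axis) of WT tadpoles given T3, both as log2(mean CPM + 0.05) over 3 libraries, with members of 7 gene lists in colour; the solid line marks equal levels and the dotted lines 2-fold differences. Muscle, collagen and most keratin genes lie far above the line, enterocyte and pancreas genes far below it, and ribosomal protein genes on it.

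The labels were checked against markers of each organ. Markers of skeletal muscle (acta1, ckm, tnnt3, mylpf and atp2a1) summed to 22070 to 23670 CPM in the tail libraries and 1.08 to 1.33 in intestine. Enterocyte markers showed the reverse, 7003 to 7429 CPM in intestine and 1.63 to 1.92 in tail, over the 7 markers measured. Notochord and cartilage markers stood at 2934 to 3127 CPM in tail against 2.79 to 3.5 in intestine, and smooth muscle markers at 6033 to 6473 in intestine against 175 to 182 in tail. Markers of spinal cord and nerve summed to 354 to 361 CPM in tail and 2.87 to 3.36 in intestine. Goblet and endocrine cell markers summed to 947 to 952 in intestine and 83.9 to 87.2 in tail. The epidermal set was the least separated, with 2432 to 2466 CPM in tail and 495 to 505 in intestine. Its junction genes dsp and perp, which many epithelia share, made up nearly all of the intestine sum, while tp63, the factor of basal skin cells, averaged 0.0962 CPM there. Pancreas markers cpa1, cpb1 and ctrb1 were counted in the intestine libraries at 425 to 440.4 CPM, against 0 to 0.0482 in tail, so pancreatic transcripts were present in the tissue labelled intestine. The liver marker apoh stayed at 0.835 to 1.03 CPM there. The markers matn1, krt5, slc5a1, actg2, prss1, ptf1a, alb, fga and fgb were not analysed here. Each library thus carried the measured markers of its label.

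Contractile muscle genes had the highest median difference of the 49 lists. Of 66 measured genes of skeletal muscle contraction and energy supply, 64 were called higher in tail, 1 higher in intestine and 1 did not pass, against 29.9% of all genes called higher in tail. Their levels summed to 62130 to 65700 CPM in tail and 1520 to 1574 in intestine. The median log2 difference was 11.15, or 10.08 with each group of libraries held at no less than 3 counts. Most of the intestine sum came from tpm1 and actc1, a tropomyosin and an actin that smooth and heart muscle also use, at means of 908 and 418 CPM there. In bulk tissue, fewer cells of a type and less RNA per cell cannot be told apart, which holds for every tissue below.

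The gene ckm, the muscle creatine kinase that buffers ATP, stood at 7814, 7982 and 7354 CPM in tail and 0.313, 0.443 and 0.493 in intestine. It was also the most abundant named gene of tail per length, at 5104 CPM per kb of counted sequence. The troponin gene tnni1.2 reached 1509, 1601 and 1535 CPM in tail and had no count in any intestine library, which makes it at least 32030-fold higher in tail against a floor of 3 counts over the intestine group. On the same floor casq1, the calcium store protein of the sarcoplasmic reticulum, was at least 13330-fold higher, and ttn, the spring-like filament titin, at least 12220-fold higher. The calcium pump gene atp2a1 stood at 5901, 5836 and 5480 CPM in tail and 0, 0.0885 and 0.0493 in intestine. With 3 counts over the intestine libraries its ratio was 118600 (95% interval 40600 to 575300), an interval of counting error only. The single list member on the other side was jsrp1, a junctional protein of the sarcoplasmic reticulum, at 126 ± 2.91 CPM in intestine against 38.97 ± 2.98 in tail. Its intestine level without T3 was 25.97 ± 1.78 CPM and its tail level 35.7 ± 0.278.

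Genes that make and renew muscle followed. Of 16 myogenic factors and satellite cell genes, 14 were called higher in tail and 0 higher in intestine, with a median log2 difference of 7.70 (6.75 at the floor). The master regulator of muscle fate myod1 stood at 14.3, 12.1 and 12.4 CPM in tail with no count in intestine. The related factor myf6 reached 30.3, 29.9 and 29.1 CPM, again without a count in intestine. Both regulators were thus detected in tail libraries alone at this depth. Among genes of muscle protein breakdown, 8 of 20 were called higher in tail and 3 higher in intestine, near the shares of all genes (29.9% and 21.2%). The ubiquitin ligase trim63, which tags sarcomere proteins for destruction, stood at 268, 276 and 274 CPM in tail and 0.0522, 0.0443 and 0.0986 in intestine. On the opposite side, bnip3, a mitophagy receptor, stood at 1656, 1577 and 1596 CPM in intestine and 213, 209 and 205 in tail, a log2 difference of -2.95 ± 0.03 (adjusted p = 2.73e-191).

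Genes of the axial skeleton and of nervous tissue lay on the tail side as well. Of 25 notochord and cartilage genes, 21 were called higher in tail and 2 higher in intestine, against 29.9% and 21.2% of all genes. The median log2 difference was 7.23 (7.07 at the floor). The cartilage collagen gene col9a2 stood at 586, 579.7 and 572 CPM in tail and 0.157, 0.0443 and 0 in intestine, and epyc, a proteoglycan of cartilage, at 374, 392 and 393 in tail and 0, 0.133 and 0 in intestine. The exceptions were foxa2 and shh, a transcription factor and a morphogen that gut epithelium also uses. shh stood at 34.3, 34.4 and 33.3 CPM in intestine and 14.1, 13.3 and 13.9 in tail, a log2 difference of -1.30 ± 0.06. Of 43 neuron and glia genes, 38 were called higher in tail and 2 in intestine, with a median of 4.42. The peripheral myelin gene mpz stood at 273, 264 and 263 CPM in tail and 0.0522, 0.133 and 0.0493 in intestine. The neurofilament gene nefm stood at 24.3, 27.3 and 26.5 in tail and 0.0522, 0.0885 and 0.0493 in intestine. The synaptic gene cplx2 went the other way, with 13.5, 15.5 and 15.6 CPM in intestine and 4.68, 3.89 and 4.75 in tail.

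Skin genes were more mixed than those of muscle or notochord. In the list of epidermal junctions and factors, 29 of 42 members were called higher in tail, 3 higher in intestine, 8 passed at under 2-fold and 2 did not pass. The collagen of hemidesmosomes col17a1, which anchors basal skin cells, stood at 1492, 1468 and 1452 CPM in tail and 0.313, 0.398 and 0.246 in intestine. Basal skin cells thus had a marker that intestine nearly lacked. The epithelial cadherin gene cdh1 was higher in intestine, at 373, 366 and 377 CPM against 152, 158 and 144, a log2 difference of -1.30 ± 0.03. Keratins, the intermediate filaments of epithelia, divided by organ. Of 24 measured keratin genes 18 were called higher in tail and 2 higher in intestine, against 29.9% and 21.2% of all genes. krt12.5 was among the most abundant tail genes per length at 2926 CPM per kb. It stood at 4317, 4434 and 4127 CPM in tail and 2.35, 2.35 and 1.92 in intestine. The intestine had its own keratin in krt20, with 1609, 1500 and 1521 CPM there and 0.145, 0.192 and 0.233 in tail. Simple-epithelium krt18.1 was present in both, at 801, 755 and 757 CPM in intestine and 262, 251 and 257 in tail. Keratin genes have close copies in this genome, and reads were counted at their primary alignment, so the split between near-identical members is uncertain.

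Extracellular matrix genes were mostly higher in tail. Of 39 fibrillar and basement membrane collagens, 36 were called higher in tail and 1 higher in intestine, against 29.9% and 21.2% of all genes. Summed levels were 28470 to 30360 CPM in tail and 2274 to 2291 in intestine, with a median log2 difference of 4.33. The lone intestine collagen was col15a1, a basement membrane collagen, at 178, 180.5 and 179 CPM in intestine and 1.16, 1.35 and 0.746 in tail. Of 48 laminins, crosslinking enzymes and other matrix proteins, 41 were called higher in tail. The collagen-binding proteoglycan lum stood at 1704, 1798 and 1700 CPM in tail and 0.261, 1.02 and 0.493 in intestine. Laminin alpha chains lama1 and lama5 were higher in intestine, with log2 differences of -1.39 ± 0.06 and -1.15 ± 0.05. With library totals alone lama5 was under 2-fold, at -0.95.

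Enzymes that cut this matrix were also mostly on the tail side. Of 18 measured matrix metalloproteinases and their inhibitors, 11 were called higher in tail and 1 in intestine, against 29.9% and 21.2% of all genes. Log2 differences ran from -1.34 to 12.30. The gelatinase gene mmp2 stood at 178, 182 and 182 CPM in tail and 14.8, 13.9 and 14.2 in intestine, a log2 difference of 3.67 ± 0.04. mmp14, the membrane enzyme that activates it, stood at 272, 269.7 and 263 in tail and 39.3, 37.8 and 39.7 in intestine, a log2 difference of 2.79 ± 0.03. The collagenase gene mmp1 stood at 35.6, 36.1 and 40.2 CPM in tail and 1.88, 1.86 and 1.58 in intestine. The member on the intestine side was mmp11, stromelysin of remodelling tissue, at 39.6, 37.97 and 38.8 CPM in intestine against 14.2, 15.7 and 15.8 in tail, a log2 difference of -1.34 ± 0.05 (adjusted p = 6.18e-69). No tail library overlapped an intestine library for these 4 enzymes, which also held for 88.4% of all genes. Of 30 other matrix and serine proteases, 23 were called higher in tail and 2 in intestine, where adam9 stood at 126, 128 and 126 CPM against 16.01, 15.8 and 15.6.

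Hox genes, which record position along the body axis, differed between the organs by paralog group. All 12 measured genes of groups 9 to 13 were called higher in tail, with log2 differences from 2.17 to 13.97 and a median of 8.99. The shares of all genes were 29.9% higher in tail and 21.2% higher in intestine. Their levels summed to 348 CPM in tail and 1.82 in intestine. Groups 1 to 4 held 10 genes, with 4 called higher in tail and 2 in intestine. Groups 5 to 8 held 11 genes, with 2 called higher in tail and 5 in intestine and a median of -0.55. hoxc12 stood at 88.6, 90.2 and 84.1 CPM in tail with no count in intestine, at least 1813-fold higher. hoxd13, which marks the posterior end of the axis, stood at 33.8, 31.1 and 31.98 CPM in tail and 0, 0 and 0.0493 in intestine. On the intestine side hoxc8 stood at 11.6, 10.3 and 10.1 CPM against 4.24, 4.23 and 4.38 in tail, a log2 difference of -1.31 ± 0.10. The 7 genes called higher in intestine all belonged to groups 2 to 8.

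**Figure D2:**
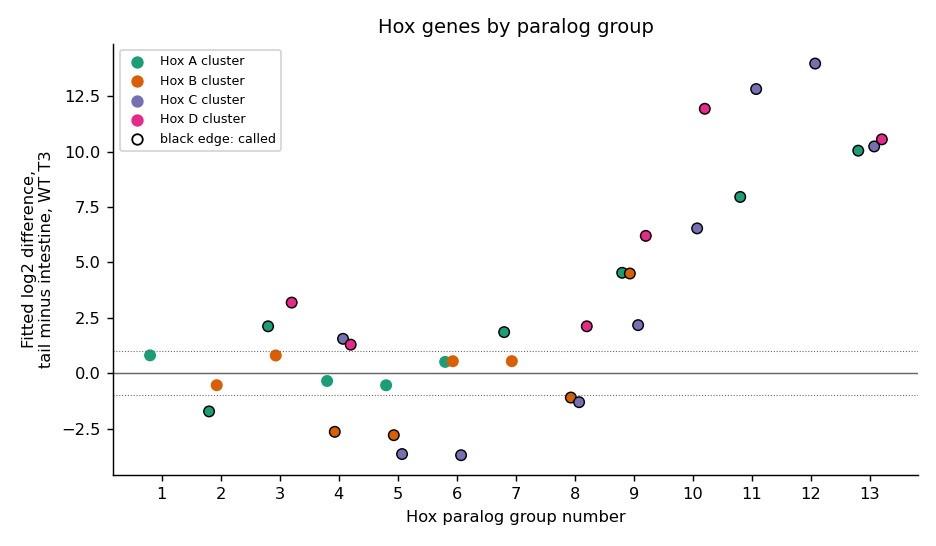
Fitted log2 difference, tail minus intestine, in WT tadpoles given T3 for 33 Hox genes (y axis) against paralog group number (x axis), coloured by cluster, with black edges on called genes and dotted lines at 2-fold. All points at 9 and above lie above the upper dotted line, while points from 1 to 8 lie on both sides of 0.

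Genes of the absorptive epithelium had the lowest median of the 49 lists. Of 43 enterocyte genes, 42 were called higher in intestine, none higher in tail, and 1 passed at under 2-fold, against 21.2% of all genes called higher in intestine. Their levels summed to 57000 to 61030 CPM in intestine and 99.05 to 104 in tail, and the median log2 difference was -12.00 (-11.61 at the floor). fth1.1, an iron storage protein gene, had the highest level per length in intestine at 7522 CPM per kb, and it was also high in tail at 4835. The enterocyte gene apoa1, an apolipoprotein of fat transport, came next in intestine at 5238 CPM per kb. fabp6, which carries bile acids inside the cell, stood at 1302, 1158 and 1207 CPM in intestine and 0.0482, 0 and 0 in tail. With 1 count in the tail libraries its ratio was 76770 (95% interval 13780 to 3032000). slc15a1, the transporter of dietary peptides, stood at 4367, 4009 and 4087 CPM in intestine and 0.0964, 0.0481 and 0.186 in tail. The brush border protein gene vil1 stood at 1671, 1597 and 1620 in intestine and 0.0482, 0.0481 and 0 in tail, and mep1b, a brush border protease, at 2327, 2224 and 2245 in intestine and 0.145, 0.0961 and 0 in tail. smim24, a small membrane protein gene, reached 899, 831 and 856 CPM in intestine with no count in tail, at least 18100-fold higher.

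Transcription factors of gut identity were higher in intestine too. Of 30 gut regional factors, 23 were called higher in intestine and 2 higher in tail, against 21.2% and 29.9% of all genes. The median log2 difference was -4.89 (-4.30 at the floor). cdx1, a homeobox factor of hindgut and intestine, stood at 309.9, 305 and 312 CPM in intestine and 0, 0.0961 and 0 in tail. gata5, an endoderm factor, stood at 422, 414 and 408 in intestine and 0, 0.0961 and 0.0466 in tail. Both factors were thus almost uncounted in tail. isx, which controls vitamin A uptake, reached 93.5, 94.05 and 94.5 CPM with no count in tail. The nuclear receptor hnf4a, a regulator of enterocyte genes, stood at 426, 427 and 424 CPM in intestine and 0.0964, 0.0481 and 0.1398 in tail. On the tail side, sox2, a factor of neural progenitors and foregut, stood at 8.58, 8.702 and 9.28 CPM against 0.209, 0.133 and 0.148 in intestine.

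Secretory, endocrine and smooth muscle genes of the gut were mostly higher in intestine. Of 37 genes of gut secretory and endocrine cells and their defence products, 23 were called higher in intestine, 6 in tail and 4 did not pass. The membrane mucin gene muc13 stood at 1852, 1743 and 1762 CPM in intestine and 0.145, 0.2404 and 0.233 in tail. The incretin hormone gene gip stood at 88.4, 83.1 and 87.3 in intestine and 0, 0 and 0.0466 in tail, and gcg, which encodes proglucagon, at 35.5, 34.9 and 33.9 with no count in tail. Exceptions on the tail side were itln1, a lectin, with 49.6, 47.3 and 51.4 CPM in tail and no count in intestine, and fcgbp, a mucus protein, with 158, 151 and 147 in tail against 1.98, 2.26 and 2.86 in intestine. Of 25 smooth muscle genes, 15 were called higher in intestine and 4 in tail, against 21.2% and 29.9% of all genes. The actin-binding gene cnn1 stood at 1361, 1296 and 1321 CPM in intestine and 6.12, 5.34 and 7.04 in tail. acta2, smooth muscle actin, stood at 2768, 2505 and 2550 in intestine and 83.4, 77.7 and 77.05 in tail. The small heat shock gene hspb1, which that list also holds, stood at 255, 246 and 251 CPM in tail and 0.0522, 0 and 0 in intestine.

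Digestive enzymes of the exocrine pancreas were counted in the tissue labelled intestine. Of 30 such genes listed, 19 had enough counts to test. Among the 19, 18 were called higher in intestine and none higher in tail, against 21.2% and 29.9% of all genes. Summed levels were 1608 to 1642 CPM in intestine and 2.94 to 3.56 in tail. Some members, such as cpb1 and cela2a, were at or near 0 in the control intestine and in tail. These passed the count filter through the T3 intestine alone, so their calls could hardly have gone the other way. Without T3 the same list summed to 85.6 CPM in intestine and 3.19 in tail. ctrc, a chymotrypsin gene, stood at 348, 334 and 334 CPM in intestine with no count in tail, cela1.5, an elastase gene, at 241, 239.6 and 233, and cpb1, a carboxypeptidase gene, at 159, 156 and 163, again with none in tail. The control intestine held ctrc at 0.686 ± 0.239 CPM and cela1.5 at 0.264 ± 0.101. Whether the dissected tissue held more pancreas or the genes were more active was not tested.

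Genes best known from liver split between the organs. Of 27 measured, 12 were called higher in tail and 11 higher in intestine, both above the shares of all genes (29.9% and 21.2%). cyp7a1, the rate-limiting enzyme of bile acid synthesis, stood at 265, 259.5 and 258 CPM in intestine and 0.0482, 0 and 0.1398 in tail. The complement gene c3 stood at 676, 683 and 685 in intestine and 3.91, 4.28 and 3.73 in tail, and cfb, which acts with it, at 619.7, 599 and 611 in intestine and 4.195, 5.67 and 4.43 in tail. Tyrosine breakdown lay on the tail side. hpd, the second enzyme of that pathway, stood at 337, 348 and 353 CPM in tail and 0.261, 0.133 and 0.0493 in intestine, tat, the first, at 138, 136 and 141 in tail and 0.417, 0.708 and 0.345 in intestine, and fah, the last, at 176, 172 and 178 in tail and 9.44, 9.83 and 9.61 in intestine. Libraries of the organs did not overlap for any of these 6 genes, as for 88.4% of all genes.

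Cholesterol genes were mostly higher in intestine, and sugar genes mostly in tail. Of 35 genes of cholesterol synthesis, uptake and export, 24 were called higher in intestine and 1 in tail, with a median log2 difference of -1.81. abcg5, a subunit of the pump that returns plant sterols to the gut lumen, reached 462, 455 and 458 CPM in intestine with no count in tail, and npc1l1, which takes cholesterol up, stood at 118, 121 and 118 in intestine against 0, 0.0481 and 0.0466 in tail. The exception lrp8, a lipoprotein receptor gene, stood at 5.88, 7.84 and 7.46 CPM in tail and 2.504, 3.23 and 2.81 in intestine. In fatty acid oxidation and lipid synthesis, 8 of 50 genes were called higher in tail and 14 in intestine. The tail count was under the 29.9% of all genes and the intestine count near the 21.2%. cd36, a fatty acid receptor, stood at 643, 623 and 626 CPM in intestine and 0.145, 0.0961 and 0.1398 in tail, and cpt1b, the muscle gate for fatty acids into mitochondria, at 61, 65.7 and 66.1 in tail and 9.49, 8.76 and 10.3 in intestine. In glycolysis and gluconeogenesis, 18 of 33 were called higher in tail, above the share of all genes, and 7 in intestine, near it. The muscle glycolysis gene eno3 stood at 3007, 2960 and 2785 CPM in tail and 2.97, 2.57 and 2.61 in intestine. pck1, the gate of gluconeogenesis, stood at 1089, 1054 and 1049 in intestine and 10.2, 8.798 and 8.86 in tail.

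Respiratory chain genes leaned towards tail, while ribosomal and proteasome genes were nearly all within 2-fold. Of 74 genes of oxidative phosphorylation, 28 were called higher in tail, none in intestine and 45 passed at under 2-fold, with a median log2 difference of 0.84. Of all genes, 29.9% were called higher in tail and 21.2% in intestine. The tail count depended on the scaling, with 25 by relative log expression, 34 by upper quartile and 40 by library totals alone. The muscle form cox7a1 of cytochrome oxidase stood at 132, 134 and 134 CPM in tail and 0.104, 0.0885 and 0.0986 in intestine. Of 76 cytosolic ribosomal protein genes 1 was called, rpl3l, a muscle form, at 83.8, 84.7 and 82.1 CPM in tail and 0.261, 0.354 and 0.345 in intestine. The list median was 0.01 and changed sign with relative-log-expression scaling (-0.03), while it was 0.12 with upper-quartile scaling and 0.21 with library totals. Of 36 proteasome subunits 2 were called higher in intestine, psmb8 and psmb9, both subunits of the immune proteasome, with log2 differences of -1.59 ± 0.09 and -1.68 ± 0.08.

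**Figure D3:**
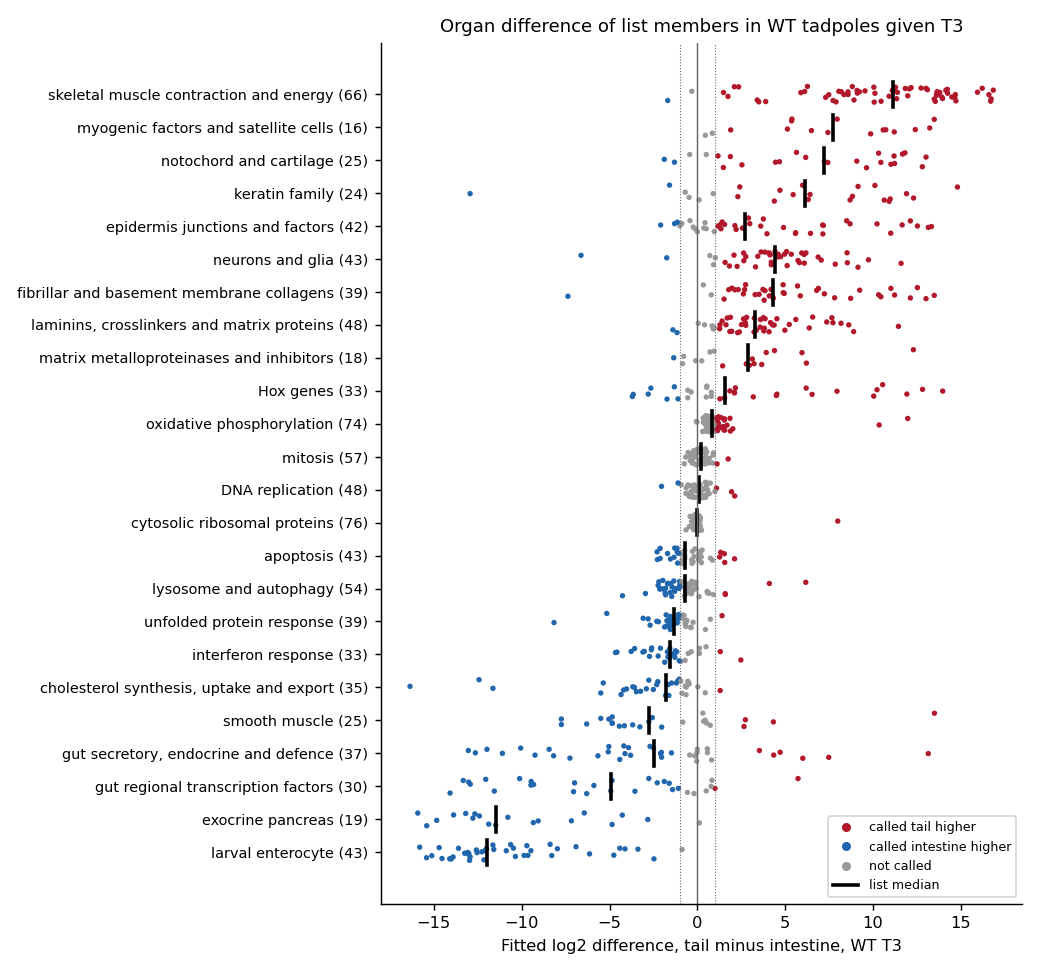
Fitted log2 difference, tail minus intestine, in WT tadpoles given T3 (x axis) for every measured member of 24 gene lists (rows, number of members in brackets), with red and blue points for genes called higher in tail and in intestine, grey points for genes not called, black bars at list medians and dotted lines at 2-fold. Tissue lists spread far from 0, while the lists of ribosomal proteins, DNA replication and mitosis cluster near it.

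Interferon and lymphocyte genes were mostly on the intestine side. Of 33 interferon response genes 24 were called higher in intestine and 2 in tail, with a median log2 difference of -1.57. irf7, a master factor of that response, stood at 78.9, 77.8 and 78.3 CPM in intestine and 5.16, 6.15 and 5.87 in tail. Of 19 lymphocyte genes 14 were called higher in intestine and 2 in tail, where gata3, which skin also expresses, stood at 35.2, 33.7 and 36.5 CPM against 0.835, 0.664 and 1.38. Of 41 macrophage and granulocyte genes 6 were called higher in tail, under the 29.9% of all genes, and 10 in intestine, near the 21.2%. mrc1, a scavenger receptor of tissue macrophages, stood at 19.1, 17.2 and 16.5 CPM in tail and 1.56, 1.903 and 1.53 in intestine, while mpo, a granule enzyme of neutrophils, stood at 27.8, 27.7 and 25.5 in intestine and 5.74, 5.53 and 5.17 in tail. Endothelial genes lay towards tail, with 24 of 33 called higher there and 1 in intestine, and so did globins and erythroid genes, 18 of 24 against 0.

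Lysosome genes were called higher in intestine more often than in tail, while most cell death genes were within 2-fold. In the apoptosis list, 5 of 43 genes were called higher in tail, 12 higher in intestine and 23 passed at under 2-fold, with a median log2 difference of -0.72. The tail count was under the 29.9% of all genes and the intestine count near the 21.2%. With library totals alone the counts were 6 and 8. fas, a death receptor gene, stood at 151, 147 and 152 CPM in intestine and 30.4, 32.1 and 30.4 in tail, and casp6, an executioner caspase, at 212, 220.3 and 213 in intestine and 47.3, 50.5 and 50.8 in tail. Without T3, fas was nearly equal, at 105, 112 and 107 CPM in intestine and 103 and 103 in tail. casp6 was higher in intestine without T3 too, at 187, 195 and 194 CPM against 36 and 35.1. On the tail side, cycs, the cytochrome that triggers the apoptosome and carries electrons in respiration, stood at 386, 398 and 389 CPM against 89.3, 88.2 and 92.8. In the lysosome and autophagy list 4 of 54 genes were called higher in tail and 23 in intestine. The acid phosphatase gene acp5 stood at 806, 776 and 793 CPM in intestine and 40.5, 42.02 and 41.2 in tail. The cathepsin genes ctsh and ctsl were exceptions, with ctsh at 64.7, 67.5 and 61.01 CPM in tail and 0.887, 0.487 and 1.33 in intestine. In the unfolded protein response, which serves secretory cells, 25 of 39 genes were called higher in intestine and 1 in tail. The chaperone hsp90b1 stood at 495, 491 and 493 CPM in intestine and 67.95, 72.6 and 71.2 in tail.

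WNT, Hedgehog and BMP genes were more often called higher in tail than in intestine. Their tail shares were above the 29.9% of all genes, and their intestine shares under the 21.2%. Of 50 WNT pathway genes 31 were called higher in tail and 8 in intestine. The secreted inhibitor wif1 reached 237, 234 and 236 CPM in tail with no count in intestine, at least 4868-fold higher, and the ligand wnt10b 55.9, 53.7 and 55.5 CPM, also with no count in intestine. The ligand wnt5b stood at 77.9, 84.4 and 81.8 CPM in intestine and 5.497, 5.87 and 5.31 in tail. Of 39 Hedgehog and BMP genes 17 were called higher in tail and 4 in intestine. The ligand ihh stood at 59.4, 61.7 and 61.9 CPM in intestine and 0.338, 0.385 and 0.373 in tail, and foxf1, its target in gut mesenchyme, at 20.5, 20.4 and 21.4 in intestine and 0.675, 0.721 and 0.746 in tail. bmp2, a growth factor of skeletal tissue, stood at 12.97, 12.02 and 12.2 CPM in tail and 0.7303, 0.929 and 1.33 in intestine. Of 40 claudin, tight junction and aquaporin genes, equal numbers were called higher in tail (14) and in intestine (14). cldn1, a skin barrier claudin, stood at 613, 617 and 605 CPM in tail and 0, 0.177 and 0.0493 in intestine, and the pore-forming cldn2 at 285, 282 and 290.1 in intestine with no count in tail.

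Genes linked to intestinal stem cells, from which the adult epithelium grows, were called at shares near those of all genes (29.9% higher in tail and 21.2% in intestine). Of 22 measured, 8 were called higher in tail and 3 in intestine, so the counts show nothing particular to the list. olfm4 stood at 42.6, 41.1 and 41.3 CPM in intestine and 0.965, 0.721 and 0.653 in tail, and rnf43, which removes WNT receptors, at 51.8, 51.2 and 53.2 in intestine and 20.8, 21.3 and 18.9 in tail. The stem cell receptor gene lgr5 stood at 12.3, 12.4 and 11.7 CPM in tail and 3.23, 2.96 and 2.27 in intestine, a log2 difference of 2.10 ± 0.11. The intestine level of lgr5 without hormone was 7.02 ± 0.751 CPM.

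The hormone receptors and most of their partners were within 2-fold between the organs. Of the 5 receptor and partner genes, 1 was called, against 51.1% of all genes. thrb lies at chr6:46687270-46933187 (minus strand) in the XENTR_10.0 annotation of the counts. It stood at 50.2, 52.1 and 49.6 CPM in tail and 62.8, 61.6 and 63.3 in intestine. The intestine libraries were all above the tail libraries, with a log2 difference of -0.30 ± 0.04 (adjusted p = 6.95e-15), which is under 2-fold. Of all genes, 88.4% had libraries that did not overlap between the organs and 88.6% passed the adjusted p. thra stood at 4.49, 4.66 and 3.54 CPM in tail and 6.62, 7.08 and 8.63 in intestine, a log2 difference of -0.82 ± 0.11 (adjusted p = 1.71e-11). Among the partners rxra differed by -0.11 ± 0.05, which turned to 0.095 with library totals alone, and rxrb by -0.68 ± 0.03. rxrg was the called member, at 12.2, 13.1 and 12.8 CPM in tail and 4.33, 5.31 and 5.57 in intestine.

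Of the deiodinases, dio3 and dio1 differed far more. dio3, the enzyme that inactivates T3, lies at chr8:97238054-97239535 (plus strand). It stood at 223, 209 and 208 CPM in tail and 1.25, 1.46 and 0.887 in intestine, a 175-fold difference (log2 7.46 ± 0.07, adjusted p = 7.17e-93). dio1, which can both activate and inactivate hormone, stood at 26.96, 26.5 and 27.4 CPM in tail and 2.35, 1.33 and 2.07 in intestine. dio2, which makes T3 from its precursor, stood at 5.83, 6.54 and 6.39 in tail and 2.29, 2.39 and 2.27 in intestine, a log2 difference of 1.43 ± 0.13. All 3 deiodinase genes were thus higher in every tail library than in any intestine library. Libraries of the 2 organs did not overlap for 88.4% of all genes. Of the whole list of 22 hormone metabolism and transport genes, 7 were called higher in tail and 13 in intestine. The tail count was near the 29.9% of all genes, and the intestine count above the 21.2%. sult1b1, which sulfates hormone, stood at 90.98, 92.7 and 89.9 in intestine and 6.8, 6.11 and 6.48 in tail.

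Among 29 known response genes of thyroid hormone, 13 were called higher in tail, 4 higher in intestine and 12 passed at under 2-fold. Of all genes, 29.9% were called higher in tail and 21.2% in intestine. The median log2 difference of the list was 0.71. thibz, a leucine zipper factor that T3 induces in tadpoles, stood at 39.4, 32.9 and 36.6 CPM in tail and 46.1, 47.5 and 48.8 in intestine, a log2 difference of -0.39 ± 0.04. klf9, a zinc finger factor that the receptors induce directly, lies at chr1:129846141-129854184 (minus strand). It stood at 8.29, 8.46 and 7.37 CPM in tail and 40.9, 41.03 and 40.3 in intestine, a 5.07-fold difference (log2 -2.34 ± 0.06, adjusted p = 5.95e-102). mycn, a transcription factor of growing cells, stood at 5.497, 6.11 and 5.64 CPM in tail and 0.835, 0.443 and 0.444 in intestine. Of the nuclear factor I family, which cooperates with the receptors, 2 of 4 were called higher in tail, nfic at 30.5, 30.6 and 28.2 CPM against 12, 13.6 and 13.6 and nfia with a log2 difference of 1.16 ± 0.07. Nuclear receptor coregulators were nearly balanced, with 3 of 27 called higher in tail and 1 in intestine. Their median of -0.06 turned to 0.05 with upper-quartile scaling and 0.14 with library totals.

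**Figure D4:**
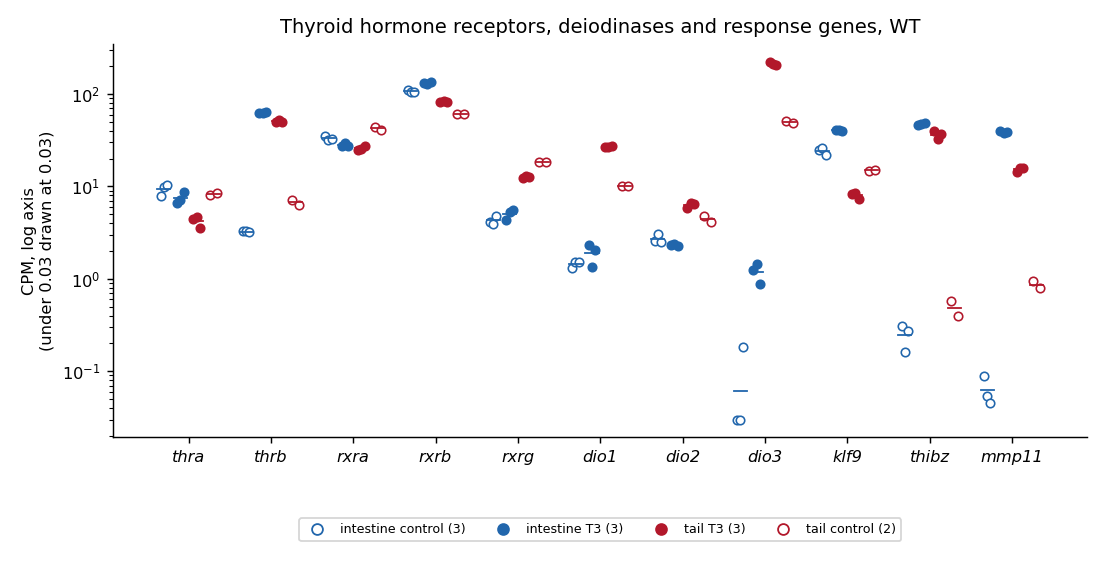
CPM on a log axis for receptor, deiodinase and response genes in each WT library, with filled points for T3, open points for control, blue for intestine and red for tail, and short lines at group means; values under 0.03 are drawn at 0.03. The thrb, thibz and mmp11 points lie higher with T3 than without it in both organs, and dio3 stays far higher in tail in both states.

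Whether the organ difference was the same without hormone was asked with the organ by T3 interaction, the difference with T3 minus that without. Without T3, 15421 genes passed between the organs (88.7%) and 9009 were called (51.8%), 5148 higher in tail (29.6%) and 3861 higher in intestine (22.2%). The organ differences with and without T3 correlated across genes (Pearson r = 0.951 and Spearman rho = 0.924 over 17383 genes, which are not independent replicates). Of the 5206 genes called higher in tail with T3, 4594 were also called higher in tail without it (88.2%), and of the 3678 called higher in intestine 3110 were (84.6%). The interaction passed for 8618 genes (49.6%) and was called for 2042 (11.7%), 1040 positive (5.98%) and 1002 negative (5.76%), where positive means relatively more tail expression with T3. Of the 1870 genes with a called interaction that were called between organs in either state, the organ difference was smaller with T3 in 1064 and larger in 806. Direct reversals were rare: 73 genes were called in one direction with T3 and in the other without, with the interaction called.

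**Figure D5:**
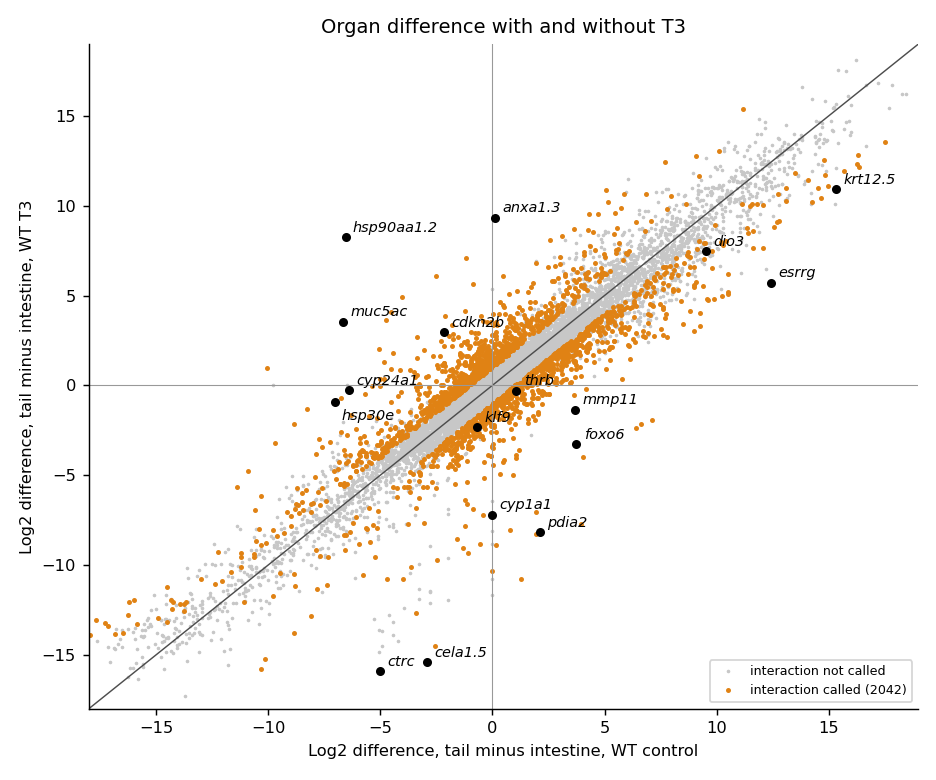
Log2 difference, tail minus intestine, without T3 (x axis) and with T3 (y axis) for 17383 genes of WT tadpoles, orange where the interaction was called, with named genes in black and the line of equal difference. Most genes follow the line, pancreatic enzyme genes fall below it and heat shock genes of the control intestine lie above it.

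Among the hormone genes, thrb and thibz became more alike between the organs with T3, and klf9 less alike. In control animals thrb stood at 6.699 ± 0.676 CPM in tail and 3.25 ± 0.0574 in intestine, and thibz at 0.487 ± 0.128 and 0.248 ± 0.07603, so tail was the higher organ for both without T3. Their interactions were -1.38 ± 0.12 (adjusted p = 2.29e-22) and -1.39 ± 0.43 (adjusted p = 0.00379). The thibz levels without T3 were low in both organs. mmp11 was called in opposite directions, from 0.867 ± 0.103 CPM in tail and 0.0626 ± 0.0224 in intestine without hormone to the higher intestine level given above (interaction -5.04 ± 0.47). Its control intestine libraries stood at 0.088, 0.0541 and 0.0456 CPM, so the mmp11 call without T3 and its interaction rest on few counts. klf9 stood at 14.99 ± 0.259 CPM in control tail and 24.3 ± 2.15 in control intestine, with an interaction of -1.65 ± 0.09. Against these, the klf9 levels with T3 given above were lower in tail and higher in intestine. dio3 stood at 49.8 ± 2.37 CPM in control tail and 0.0607 ± 0.105 in control intestine. Its interaction was -2.06 ± 0.61, which rests on few counts in the control intestine. In the response gene list the interaction was called negative for 10 of 29 members and positive for 2, the latter near the share of all genes. Of all genes, 5.76% were called negative and 5.98% positive. The median organ difference of the list was 1.24 without T3 and 0.71 with it.

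Cell division genes had only positive interactions among those called. The interaction was positive for 29 of 57 mitosis genes and negative for none, and positive for 9 of 48 DNA replication genes and negative for none, where 5.98% of all genes were called positive and 5.76% negative. The median organ difference of the mitosis list was -0.78 without T3 and 0.21 with it, and its levels summed to 365 to 371 CPM in tail and 302 to 308 in intestine with T3, against 223 and 343 without. mki67, a marker of cycling cells, stood at 39.3, 43.7 and 40.3 CPM in tail and 12.4, 12.3 and 11.8 in intestine with T3. Without T3 it stood at 25.2 ± 0.992 CPM in tail and 17.6 ± 0.4099 in intestine (interaction 1.25 ± 0.08, adjusted p = 1.29e-34). hmmr, a spindle protein gene, was called higher in tail with T3 but not without it, at 3.66 ± 0.441 CPM in control tail and 5.201 ± 0.566 in control intestine against 8.296 ± 0.875 and 3.804 ± 0.139 with T3. With T3 these 2 genes were the called members of the 57 in the mitosis list, and the count rose to 4 with upper-quartile scaling and 5 with library totals alone. Of the other members, 34 passed at under 2-fold and 21 did not pass. This is far under the 51.1% of all genes called between the organs with T3.

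Among the largest negative interactions were pancreatic enzymes. The means of cela1.5, ctrc, cpa1, ctrl, cela2a and amy2a ran from 0.0484 to 2.998 CPM in the control intestine and from 28.4 to 338 in the T3 intestine. The interactions of ctrc and cela2a were no longer called without tail control replicate 2 (-8.95 and -5.78, adjusted p = 1.00 and 0.987), and both genes were at or near 0 in every tail library. cyp1a1, an enzyme of foreign compound breakdown, stood at 174, 164 and 164 CPM in the T3 intestine, 1.37 ± 0.146 in the control intestine, 1.13 ± 0.217 in the T3 tail and 1.37 ± 0.00351 in the control tail. foxo6, a forkhead factor, stood at 37.2 ± 0.891 CPM in the T3 intestine against 0.0152 ± 0.0263 without, and at 3.797 ± 0.234 in the T3 tail against 0.347 ± 0.3204. Among the positive ones, anxa1.3, an annexin gene, stood at 55.4, 55.6 and 55.1 CPM in the T3 tail and at 0.163 ± 0.0426 in the control tail, with 0.0788 ± 0.0744 and 0.154 ± 0.0953 in intestine. muc5ac, a secreted mucin gene, stood at 25.8, 28.6 and 25.9 CPM in the T3 tail and 0.124 ± 0.0737 in the control tail, while in intestine it stood at 2.32 ± 0.316 with T3 and 11.5 ± 0.713 without.

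Several positive interactions were stress genes high in the control intestine. hsp90aa1.2 and hsp90aa1.1, stress-induced chaperones, stood at 93.7 ± 3.95 and 152 ± 1.65 CPM in the control intestine while with T3 hsp90aa1.2 had no count there and hsp90aa1.1 stood at 0.613 ± 0.0667. In tail hsp90aa1.1 stood at 14.6 ± 0.626 CPM without T3 and 3.96 ± 0.343 with it. The small heat shock genes hsp30c, hsp30d and hsp30e had means from 245 to 431 CPM in the control intestine and from 3.32 to 5.79 in the control tail. In the T3 libraries of both organs their highest value was 1.13 CPM, of hsp30e in intestine. They are close copies of each other, so the split between them is uncertain. Over the whole list of heat shock genes and chaperones the interaction was positive for 17 of 44 and negative for 4. Of all genes, 5.98% were called positive and 5.76% negative. Summed levels of that list were 14670 CPM in control intestine, 8684 to 9165 in T3 intestine, 8267 in control tail and 6875 to 7040 in T3 tail. With T3 12 members were called higher in tail, near the 29.9% of all genes, and 5 in intestine, under the 21.2%. hspb7, a small heat shock protein of muscle, stood at 295, 294 and 291 CPM in tail and 3.76, 3.67 and 3.99 in intestine. The part of this stress signal in other interactions was not tested.

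Traces of some genes strong in one organ were counted in the other. In the T3 intestine krt12.5, krt62 and krt15.2, keratins of tail, stood at 2.21 ± 0.245, 0.959 ± 0.193 and 0.356 ± 0.0429 CPM, and in the control intestine at 0.0693 ± 0.0838, 0.0688 ± 0.08401 and 0.0152 ± 0.0263. Their negative interactions (-4.41, -3.76 and -3.96) rest on these low values. Traces of some muscle genes were counted in intestine as well. The 5 skeletal muscle markers summed to 1.08 to 1.33 CPM in the T3 intestine and 0.669 in the control intestine, and tnni1.2, casq1 and ttn had no count in the T3 intestine. In the T3 tail apoa1, an apolipoprotein of enterocytes, stood at 1.42 ± 0.322 CPM against 0.267 ± 0.0654 in the control tail, beside 6123 ± 429.8 in the T3 intestine. Its interaction of 2.17 rests on the tail traces in the same way and was not called by limma-voom (adjusted p = 0.253). The part of carried-over RNA in these low values was not tested.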

How the data were processed

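RNA of tissue labelled intestine or tail was made into stranded total RNA libraries, per the labels' protocols. The submitters' processing notes name cutadapt 3.2, STAR 2.7.7a and featureCounts of Subread 2.0.1. What the authors deposited are raw counts of read pairs per gene for 26531 genes, reverse-stranded, primary alignments only, without reads marked as duplicates and grouped by gene name on XENTR_10.0, per the file headers. With no molecular identifiers named, ignoring marked duplicates may understate highly expressed genes. Coordinates are those of the files, and 26530 symbols matched a RefSeq table.

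Tail WT control replicates 1 and 3 agreed within sampling noise (mean chi-square 1.01, p = 0.126, chi-square over all genes with 20 counts or more) and were added together, leaving 11 WT samples. Genes were filtered with filterByExpr, scaled by TMM and tested with edgeR 4.0.16 (R 4.3.3) by the robust quasi-likelihood F test, with 1 coefficient per WT group and Benjamini-Hochberg adjustment over 17383 genes. limma 3.58.1, DESeq2 1.42.0, other scalings, no filter, other sample sets, a replicate block and leaving out each library were alternatives. The code was tested on simulated counts. The main fit did not pair samples by replicate number.

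The comparison, its members, the 49 lists and the tests were chosen with earlier results of these data known. Named genes were the hormone genes, the 12 largest differences per organ at 20 CPM or more, the 10 highest levels per kb, up to 4 called members per list and direction at 5 CPM or more, the 10 largest interactions per direction and 8 genes that changed sides. A fold against libraries with no count is a lower bound computed with 3 counts for the whole group. Ratios on 1 to 3 counts have exact 95% intervals. Both cover counting error only.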

Additional observations from a re-analysis of the deposited data

Results flagged for a closer look

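For the genes here the organ difference with T3 differed from that without it, by edgeR's test of the interaction with Benjamini-Hochberg adjustment, at 2-fold or more. Values are log2 interactions.

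Of the hormone genes, thrb had -1.38, thibz -1.39, klf9 -1.65, dio3 -2.06 and dio1 1.03. Of the digestive enzyme genes, cela1.5 had -12.51, ctrc -10.89, cpa1 -9.28, ctrl -8.25, cela2a -7.73 and amy2a -6.08, and pdia2, a disulfide isomerase of the pancreas, -10.29. The stress genes hsp90aa1.2, hsp90aa1.1, hsp30e, hsp30c and hsp30d had 14.81, 6.05, 6.12, 5.36 and 5.21. Regulators among them were foxo6 with -7.04, the orphan receptor gene esrrg with -6.69, gpr83 with -8.78 and cdkn2b, a brake on the cell cycle, with 5.12. Epithelial and matrix genes were muc5ac with 10.19, anxa1.3 with 9.22, krt70 with 4.78 and cilp2 with 4.74. Enzymes and carriers were cyp24a1, which breaks down vitamin D, with 6.15, cyp1a1 with -7.20, endoul2 with -5.98 and hpx, a heme carrier, with 7.08.

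The largest of these values rest on a group at or near 0 and depend on the prior count of the fit. cyp24a1 stood at 114 ± 2.65 CPM in the control intestine and 1.903 ± 0.274 in the T3 intestine, and hpx at 19.5 ± 0.961 and 0.13 ± 0.0587. cdkn2b stood at 11.2 ± 0.197 CPM in the T3 tail and 0.351 ± 0.185 in the control tail, and gpr83 at 15.9 ± 0.665 in the T3 intestine and 0.0327 ± 0.0288 in the control intestine.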

How the results depend on the processing

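Of the 319 named genes, all kept their direction between organs under each alternative except 4 that lie near 0. With library totals alone rxra came to 0.095, eef1a1 to 0.045, rps6 to 0.038 and hsp30c to 0.18. hsp30c also came to 0.086 with upper-quartile scaling and ran from -0.24 to 0.094 when each T3 library was left out, positive without intestine replicate 3, tail replicate 1 or tail replicate 3. The cause was not tested. The list medians that changed sign with the scaling were those of ribosomal proteins and coregulators, given above, claudins (0.02, and -0.01 by relative log expression) and fatty acid oxidation (-0.03, and 0.08 by upper quartile). Under other scalings 1 to 3 gut regional factors were called higher in tail and 1 to 2 ribosome biogenesis genes higher in intestine. Among single genes, 7 organ differences and 17 interactions were no longer called under at least 1 alternative. Among these the dio1 interaction fell to 0.80 without intestine T3 replicate 2, and that of cilp2 had an adjusted p of 0.0834 without intestine control replicate 3. The count of genes called between organs ran from 8820 to 8867 when each T3 library was left out, 5154 to 5185 higher in tail and 3642 to 3695 higher in intestine. The count of interactions ran from 1966 to 2062 over all 12 WT libraries left out in turn, 1001 to 1057 positive and 937 to 1025 negative. A test against a 2-fold difference, chosen after seeing the data, called 8166 genes between organs and 876 interactions, 464 positive and 412 negative, because it asks for more than a fitted 2-fold change. Other scalings moved the tail share of calls from 58.6% to between 57.6% and 63.9%. Tail and intestine deviations of the T3 samples correlated at -0.00827 to 0.00869, and not every sample correlated best with its own number. With so little spread between replicates, this check cannot tell whether same-numbered samples came from the same tadpoles. With a replicate block 5088 genes were called higher in tail and 3607 in intestine, and 1064 interactions were positive and 965 negative. Depth limits genes absent from an organ: 3 counts over a T3 group correspond to a mean of 0.0476 CPM in tail and 0.0483 in intestine.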

Other observations

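Some gene groups fell outside the comparisons above. hsd11b1, which makes active glucocorticoid, stood at 292, 284 and 285 CPM in the T3 intestine and 4.195, 4.95 and 3.82 in the T3 tail. hsd11b2, which inactivates it, stood at 98.1, 98.5 and 96.3 CPM in the T3 intestine and 0.434, 0.769 and 0.699 in the T3 tail. Both enzymes were thus higher in intestine. Of 21 corticosteroid receptor and response genes 6 were called higher in tail, near the 29.9% of all genes, and 10 in intestine, against 21.2%. The counts were 5 and 10 with relative-log-expression scaling and 8 and 9 with library totals alone. Of 35 other nuclear receptors 9 were called higher in tail and 11 in intestine, near the shares of all genes (29.9% and 21.2%), with the retinoic acid receptor gene rarg at 113, 112 and 115 CPM in tail and 4.43, 3.45 and 3.35 in intestine, and nr0b2, a repressor of bile acid synthesis, at 286, 272 and 275 in intestine and 0.723, 0.337 and 0.606 in tail. Of 22 clock genes 5 were called higher in tail and 0 in intestine, no larger a share in tail than the 29.9% of all genes, and the tail count was 4 with relative-log-expression scaling and 9 with library totals alone. Among them was the clock output factor hlf at 28.6, 27.7 and 28.5 CPM in tail and 7.77, 7.48 and 7.69 in intestine. Without T3, hlf stood at 7.82 ± 0.761 CPM in tail and 9.58 ± 0.481 in intestine. Of 45 immediate early and MAPK feedback genes 15 were called higher in tail and 10 in intestine, again near the shares of all genes. Single members differed, with ccn2, a matrix-associated growth regulator, at 160, 166 and 168 CPM in tail and 9.76, 11.2 and 10.8 in intestine, and fos at 49.4, 48.3 and 50.5 in intestine and 12.2, 12.9 and 11.8 in tail. Of 59 ribosome biogenesis genes 4 were called higher in tail and 1 in intestine.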
